A study of Mus musculus with 6 samples.

Results

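The genes described here encode the integrin chains and the core proteins of focal adhesions, and they were followed in 2 mouse endothelial cell lines, bEnd.3 and UV2. The 42 members were chosen by name, as the integrin alpha and beta chains and the main cytoplasmic adhesion proteins. Earlier results of these data were known at that choice. All 42 have a row among the 24411 genes of the count table. Each line was sequenced as 3 libraries of bulk mRNA. bEnd.3 is a widely used line of mouse brain endothelium, and of UV2 the labels give the cell type, endothelial, and the strain. The bEnd.3 line carries the strain label BALB/c, and the UV2 line, written UV♀2 in its description, carries the label (BALB/c x C57BL/6)F1, so line and strain background cannot be told apart. All 6 libraries came from cells that had reached confluency on 10-cm dishes, had then spent 3 days without serum, and were detached with trypsin-EDTA before RNA isolation. The labels name no treatment that separates the groups. Each group is 1 established line, and nothing in the labels says whether its 3 libraries came from separate cultures, so a p-value here reflects the spread of these libraries alone, and that spread may be technical.

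Integrins are cell-surface receptors made of 1 alpha and 1 beta chain. The alpha chain largely sets which ligand is bound: collagens, laminins, the RGD sequence of fibronectin and vitronectin, or counter-receptors on other cells. Talins and kindlins bind the beta chain tails and switch integrins to the active state, ILK forms a complex with PINCH and parvin proteins, FAK, paxillin and p130Cas pass signals on, and vinculin, zyxin and tensins connect the site to actin. In blood vessels the alpha5, alphaV and alpha6 chains with beta1 or beta3 hold endothelial cells on their basement membrane.

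The libraries held between 21306441 and 28748128 expected counts. Levels are given as CPM, counts scaled to a common library size after TMM scaling, as mean ± SD of n = 3 libraries. All 8 endothelial markers, among them Pecam1, Cdh5 and Kdr, were above 1 CPM in both lines. Their summed level was 10659 to 11114 CPM in bEnd.3 and 10885 to 12468 CPM in UV2, but single markers moved in both directions. Tie1 was higher in UV2, at 1198 ± 110 CPM in bEnd.3 against 2210 ± 269 CPM (edgeR adjusted p = 2.74e-04). Emcn was lower, at 780 ± 57.2 against 281 ± 29.2 CPM (edgeR adjusted p = 9.05e-06). Erg was also lower, at 363 ± 35.9 against 286 ± 16.4 CPM (edgeR adjusted p = 0.00976), and the others did not pass. Of 8 leukocyte markers, 2 were above 1 CPM in bEnd.3 and 3 in UV2. Epithelial markers numbered 0 of 6 above 1 CPM in each line, and 8 mural and smooth muscle markers summed to 0.529 to 0.849 CPM in bEnd.3 and 3.66 to 6.17 CPM in UV2. Of the mural and smooth muscle markers, Pdgfrb alone was above 1 CPM, in UV2 (0.287 ± 0.131 against 4.36 ± 1.27 CPM, edgeR adjusted p = 7.35e-05). Acta2 had 0 counts in bEnd.3 and 39 in UV2, and Rgs5 had 0 and 2. Myh11 had 16 and 4, Notch3 had 11 and 1, and Cspg4 had 7 and 1. Des and Cnn1 had 0 counts in all 6 libraries, and the part of these markers in the results was not tested. Among 9196 genes at 10 CPM or more, bEnd.3 replicate 1 lay more than 2-fold from both other bEnd.3 libraries for 69 genes, Itga3, Itga8 and Itga9 among them, and UV2 replicate 1 did so for 21 genes, including Itga4 and Itga8. UV2 replicate 3 stood apart in the same sense for 109 genes, none of which was a member. In bulk RNA, fewer cells of a type and less RNA per cell cannot be told apart.

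The lines differed in the RNA of several integrin chains. Relative to gene length, Itga6, Itga5 and Itga3 were the most abundant alpha chains in both lines, and Itgb1, Itgb3 and Itgb4 the most abundant beta chains. In UV2 the alpha chains Itga1 and Itgax were 81.5-fold and 154-fold higher than in bEnd.3, whereas Itga4 and Itga8 were 460.0-fold and 100.2-fold lower. The fibronectin receptor chain Itga5 was 2.54-fold higher in UV2, and the shared partner Itgb1 was 1.34-fold lower. Differences among the cytoplasmic adhesion proteins were smaller: of 16 tested, vinculin and zyxin alone passed the test against a 2-fold change, in opposite directions, and neither passed it under every alternative.

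Of the 42 members, 36 had enough counts to be tested. By edgeR's quasi-likelihood test at an adjusted p under 0.05, 14 members had more RNA in UV2, 16 had less and 6 did not pass. That is 83.3% called, against 67.1% of all 12720 tested genes (33.9% higher and 33.3% lower). When the null hypothesis was a 2-fold change, 7 members were higher and 6 lower, or 36.1%, against 19.4% of all tested genes (10.6% higher and 8.81% lower). With the median log2 fold change of each chromosome removed, 5 were higher and 6 lower: Itga2, Itga5 and Vcl lost this call and Tln2 gained it. Zyx lost it without bEnd.3 replicate 3, UV2 replicate 2 or UV2 replicate 3, and without UV2 replicate 3 Itgb7, Lims2 and Tln2 gained it. The 3 UV2 libraries lay entirely above the 3 bEnd.3 libraries for 14 members and entirely below for 14, or 77.8%, against 73.2% of all tested genes (36.5% above and 36.8% below). The median log2 fold change, UV2 over bEnd.3, was -0.17 over the tested members and -0.01 over all tested genes, and the median size of the change regardless of sign was 0.92 and 0.50. Of 20 tested integrin chains, 15 were called and 11 passed the 2-fold test, and of 16 tested adhesion proteins, 15 were called and 2 passed it.

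**Figure D1:**
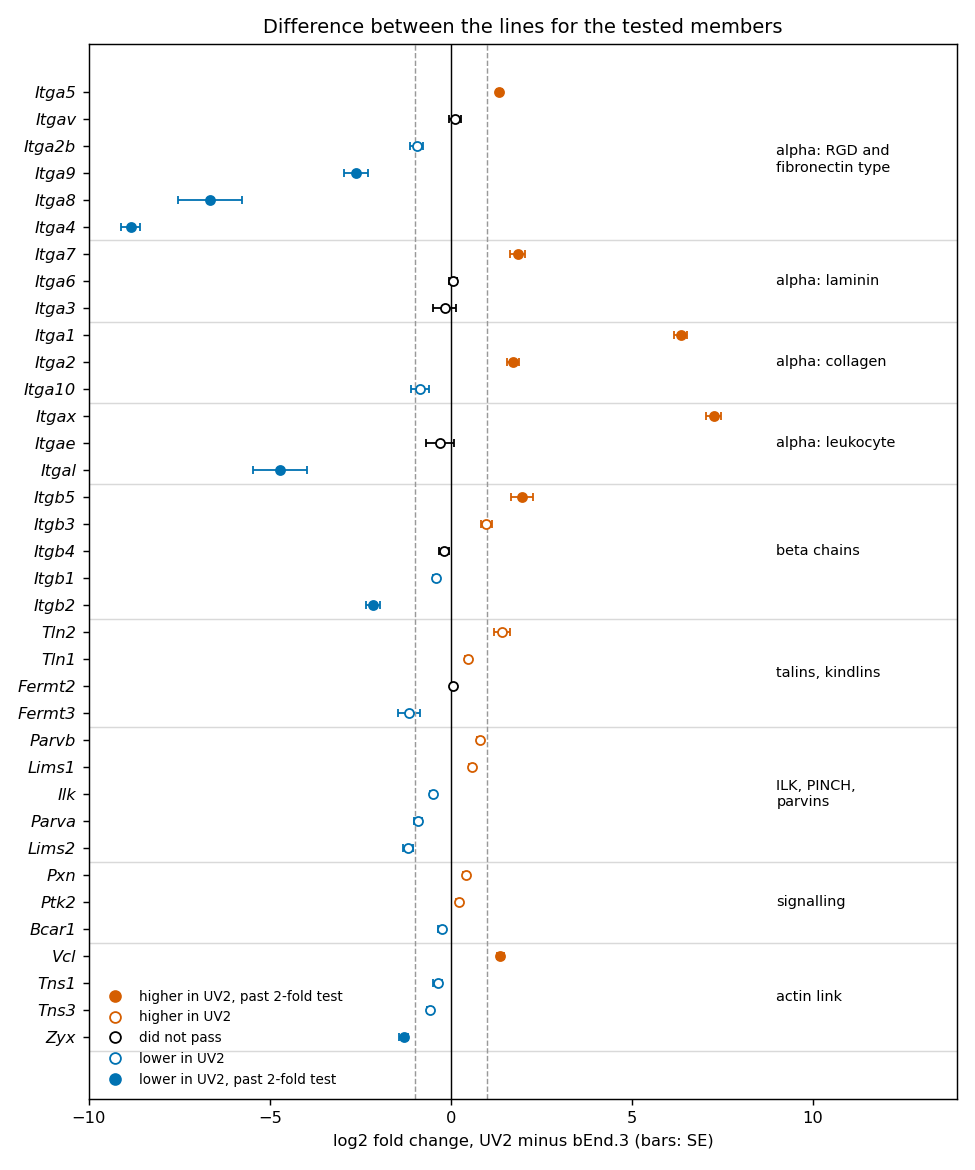
Log2 fold change (UV2 minus bEnd.3) of the 36 tested members, grouped by role, with bars for the standard error. Filled points passed the test against a 2-fold change and dashed lines mark 2-fold. Itgax at 7.27 and Itga1 at 6.35 lie farthest to the right and Itga4 at -8.85 farthest to the left, while the adhesion proteins lie between -1.31 and 1.41.

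Among alpha chains that bind fibronectin, RGD ligands and related sites, 6 were tested, of which Itga5 was higher, 4 were lower and Itgav did not pass. The share called was 83.3%, beside 67.1% of all tested genes. Itga4, the alpha4 chain that binds VCAM-1 and an alternatively spliced stretch of fibronectin, lies on chromosome 2 (79255426 to 79333114, GRCm38). Its level was 271, 266 and 275 CPM in the bEnd.3 libraries and 1.06, 0.242 and 0.424 CPM in the UV2 libraries. The bEnd.3 libraries were high and nearly level, and all UV2 libraries were close to absence, with 41 counts in total against 20663. The log2 fold change was -8.85 (SE 0.27, adjusted p = 2.11e-07, edgeR), and it was -9.59 without UV2 replicate 1, the library with most of the remaining counts. Exons of Itga4 share 127 bases with Cerkl on the opposite strand, and whether the counting used strand is not given in the sources used here.

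Itga8 (chromosome 2, 12106632 to 12301985), whose alpha8beta1 product binds nephronectin, was measured at 5.16, 33.6 and 26.7 CPM in bEnd.3 and at 0.338, 0.145 and 0.154 CPM in UV2. The bEnd.3 libraries were uneven, replicate 1 being the low one, but all exceeded every UV2 library. The log2 fold change of -6.65 (SE 0.89, adjusted p = 3.30e-04, edgeR) was -7.11 without bEnd.3 replicate 1, and its exons share 372 bases with the opposite-strand gene E030013I19Rik. Itga9 (chromosome 9, 118606709 to 118901003), the alpha9 chain, binds tenascin-C and is known for its part in lymphatic valves. It stood at 10.5, 23.1 and 23.5 CPM in bEnd.3 and at 2.66, 2.62 and 4.01 CPM in UV2. The same bEnd.3 library was low for Itga9, and the groups again did not overlap (edgeR log2 fold change -2.61, SE 0.34, adjusted p = 2.89e-04, edgeR).

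Itga5 (chromosome 15, 103344286 to 103366791) encodes the alpha5 chain of the classical fibronectin receptor. Its level was 553, 559 and 571 CPM in bEnd.3 and 1385, 1491 and 1400.2 CPM in UV2. The libraries of each line lay close together and the lines were well separated, with a log2 fold change of 1.34 (SE 0.07, adjusted p = 2.17e-06, edgeR). All tested genes of chromosome 15 had a median log2 fold change of 0.50, and with the medians of the chromosomes removed the value for Itga5 was 0.84 (adjusted p = 2.54e-05) and no longer passed the 2-fold test. Itgav, the alphaV chain of vitronectin receptors (chromosome 2, 83722303 to 83806917), was measured at 103, 83.4 and 65.9 CPM in bEnd.3 and at 103, 91.5 and 78.9 CPM in UV2. Its libraries overlapped, and the log2 fold change of 0.12 (SE 0.17) did not pass (adjusted p = 0.554). Itga2b, the platelet alphaIIb chain, was lower in UV2, at 5.27 ± 0.519 against 10.1 ± 2.25 CPM (adjusted p = 0.00232). Among defining platelet markers, Gp6 had 0 counts in all 6 libraries, but Gp1ba was at 2.28 ± 0.269 CPM in bEnd.3 against 2.20 ± 0.508 in UV2, and Pf4 at 1.63 ± 0.239 against 2.08 ± 0.818. Gp1bb had 2 counts in bEnd.3 and 37 in UV2, Gp9 had 14 and 2, and Ppbp had 0 and 5. The summed level of all 6 megakaryocyte and platelet markers was 3.86 to 4.56 CPM in bEnd.3 and 3.82 to 6.25 CPM in UV2.

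Collagen-binding alpha chains gave 2 higher and 1 lower among 3 tested, or 100% called, beside 67.1% of all tested genes. Itga1, the alpha1 chain with a preference for collagen IV, a basement membrane collagen, lies on chromosome 13 (114958079 to 115101964). It was measured at 4.71, 4.27 and 6.21 CPM in bEnd.3 and at 347, 474 and 427 CPM in UV2. Every UV2 library was far above every bEnd.3 library, with a log2 fold change of 6.35 (SE 0.19, adjusted p = 1.88e-07, edgeR). Its neighbour Itga2 (chromosome 13, 114833081 to 114932100), the alpha2 chain that prefers fibrillar collagens, lies 25.978 kb away with 0 protein-coding genes between them. Itga2 was measured at 5.83, 4.11 and 4.35 CPM in bEnd.3 and at 15.4, 17.5 and 14.2 CPM in UV2. It was also higher in all UV2 libraries, but by a log2 fold change of 1.72 (SE 0.16, adjusted p = 5.76e-05, edgeR), and the median of chromosome 13 was 0.52. With the medians of the chromosomes removed Itga2 was at 1.21 and no longer passed the 2-fold test. Itga10, the alpha10 collagen receptor chain, was lower in UV2, with 8.18 ± 1.59 against 4.54 ± 1.29 CPM (edgeR log2 fold change -0.85, adjusted p = 0.0145). This call was lost without bEnd.3 replicate 3 (adjusted p = 0.0523).

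Of the 3 laminin-binding alpha chains, Itga7 was higher in UV2 at a low level (0.856 ± 0.0941 against 3.11 ± 0.324 CPM, log2 fold change 1.84, adjusted p = 1.25e-04), and the other two did not pass. Itga6, the alpha6 chain of the main endothelial laminin receptors, averaged 654 ± 23.5 CPM in bEnd.3 against 681 ± 97.5 CPM in UV2, with a log2 fold change of 0.06 (SE 0.11, adjusted p = 0.636). With the medians of the chromosomes removed it was 0.34 (adjusted p = 0.0244). Itga3, the alpha3 chain, had 714, 334 and 283 CPM in bEnd.3 and 420.1, 417 and 352 CPM in UV2. The bEnd.3 libraries spanned the UV2 range on both sides, and the log2 fold change of -0.16 did not pass (adjusted p = 0.671). Without bEnd.3 replicate 1, its highest library, the value turned to 0.36 (adjusted p = 0.0213).

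The alpha chains named for leukocytes behaved unlike each other. Itgax, the alphaX chain (CD11c) used as a marker of dendritic cells, lies on chromosome 7 (128129526 to 128150657). It was measured at 0.897, 0.814 and 0.441 CPM in bEnd.3 and at 93.0, 119.9 and 112 CPM in UV2. All UV2 libraries were high and the bEnd.3 libraries were below 1 CPM, with a log2 fold change of 7.27 (SE 0.21, adjusted p = 1.56e-07, edgeR). Itgam, the alphaM chain, lies 11.034 kb from Itgax, with 0 protein-coding genes between them. It had 3 counts in bEnd.3 and 19 in UV2, a ratio of 6.88 with a 95% counting interval of 2.03 to 36.3. Itgal, the alphaL chain of LFA-1, was lower in UV2, at 0.987, 2.97 and 2.07 CPM in bEnd.3 and 0.0423, 0.194 and 0 CPM in UV2 (edgeR log2 fold change -4.72, SE 0.75, adjusted p = 8.53e-04, edgeR). That estimate rests on 5 counts in UV2 and moved to -6.33 without UV2 replicate 2 and to -4.09 without UV2 replicate 3. Itgae, the alphaE chain, had 0.603 ± 0.209 and 0.490 ± 0.146 CPM and did not pass (adjusted p = 0.505).

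Itgb2, the beta2 chain with which alphaX, alphaM and alphaL pair, went the other way from Itgax. Its level was 4.57, 3.91 and 4.45 CPM in bEnd.3 and 0.972, 0.824 and 1.08 CPM in UV2, so that every UV2 library was lower (edgeR log2 fold change -2.16, SE 0.19, adjusted p = 3.90e-05, edgeR). On a per-length scale, TPM, in which counts are divided by the merged exon length before scaling, UV2 held 68.7 ± 8.01 TPM of Itgax and 0.888 ± 0.118 TPM of Itgb2. Leukocyte markers were measured beside these chains. Their summed level was 91.4 to 161 CPM in bEnd.3 and 610.4 to 632 CPM in UV2. Of the defining markers, Cd3e was at 0 counts in all 6 libraries, Ptprc had 1 count in bEnd.3 and 0 in UV2, and Spi1 had 0 and 2. The higher sum in UV2 came from Lyz2, with 1.27 ± 0.392 against 330.3 ± 55.3 CPM, and Cd68, with 116 ± 37.2 against 285 ± 49.8 CPM.

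For the 4 alpha chains with the largest differences, up to 250 bases before the start annotated by RefSeq are shown, because neighbouring or related genes in this family differed so unequally. They are from RefSeq (GRCm38.p6), 5′ to 3′ on the strand of the gene. Gene positions elsewhere are from RefSeq's list of gene intervals. That list places the starts of Itga8 and Itgax 41 and 24 bases upstream of the starts used for these windows, and bases inside the gene interval are left out. Each sequence therefore ends at the base before the gene interval, which leaves 209 bases for Itga8 and 226 for Itgax. Capitals mark matches on either strand to TGANTCA (the AP-1 site), GGGCGG (the GC box), CCGGAA (the ETS site), TATAAA (the TATA box) or the CArG box, and the short E-box motif, CANNTG, was counted but not marked. Itga4 spans chr2:79255176-79255425 on the plus strand and Itga8 spans chr2:12301986-12302194 on the minus strand. Itga1 spans chr13:115101965-115102214 on the minus strand and Itgax spans chr7:128129300-128129525 on the plus strand.
Itga4: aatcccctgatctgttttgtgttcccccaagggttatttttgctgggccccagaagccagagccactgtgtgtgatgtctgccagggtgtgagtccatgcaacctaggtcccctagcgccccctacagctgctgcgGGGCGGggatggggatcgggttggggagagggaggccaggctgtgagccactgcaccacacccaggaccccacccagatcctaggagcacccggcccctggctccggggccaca
Itga8: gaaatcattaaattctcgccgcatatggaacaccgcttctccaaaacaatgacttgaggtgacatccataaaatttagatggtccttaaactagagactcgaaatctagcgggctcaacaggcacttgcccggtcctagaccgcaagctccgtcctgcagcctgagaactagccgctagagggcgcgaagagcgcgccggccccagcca
Itga1: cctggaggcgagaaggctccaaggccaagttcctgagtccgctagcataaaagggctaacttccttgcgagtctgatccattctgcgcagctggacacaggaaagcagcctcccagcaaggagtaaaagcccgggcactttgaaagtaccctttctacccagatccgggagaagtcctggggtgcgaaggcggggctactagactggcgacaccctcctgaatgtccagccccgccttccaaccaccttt
Itgax: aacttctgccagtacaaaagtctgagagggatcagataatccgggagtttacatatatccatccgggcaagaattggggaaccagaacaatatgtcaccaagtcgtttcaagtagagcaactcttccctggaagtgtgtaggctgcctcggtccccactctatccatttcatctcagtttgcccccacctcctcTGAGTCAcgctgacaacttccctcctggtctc

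Itga4 held 1 GC box, which begins 114 bases before both the window's start site and the gene interval. Itgax held 1 AP-1 match (TGAGTCA), which begins 56 bases before the start used for the window and 32 before the gene interval. The whole 250-base windows of Itga8 and Itga1 held 0 matches to the marked motifs. In the same whole windows, CpG pairs numbered 6 for Itga4, 5 for Itgax, 10 for Itga1 and 18 for Itga8. Of the 42 members, 30 had an entry, with 36 windows. The GC box was found in 18 of these 36 windows and in 32.7% of all 32851 windows of the same length, and AP-1 in 2 of 36 (Itgax and Zyx) and in 6.75% of all. The ETS site was found in 4 of 36 and 12.03% of all, the TATA box in 1 of 36 and 12.4%, the CArG box in 3 of 36 (Fermt2, Itgb6 and Vcl) and 1.47%, and the E-box in 26 of 36 and 66.2%. The median number of CpG pairs was 12 over member windows and 6 over all windows. These are matches of letters and not measurements of binding.

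**Figure D2:**
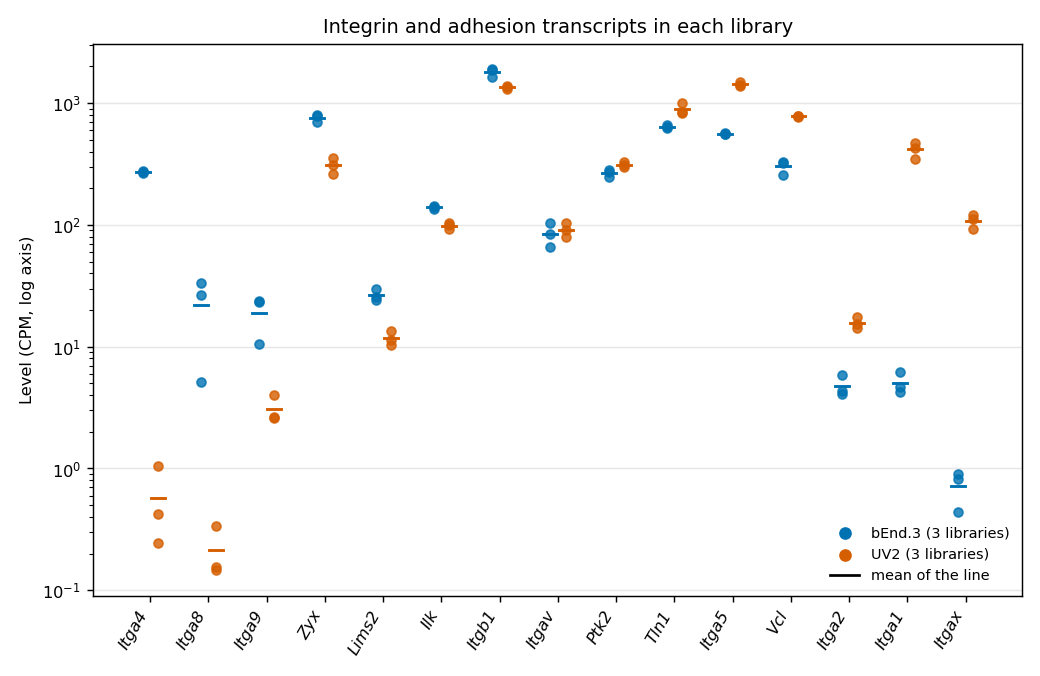
CPM on a log axis of the 15 members described library by library, ordered by their change, with the mean of each line as a bar. Itga4 and Itga8 fall from 270.4 and 21.8 CPM in bEnd.3 to 0.574 and 0.213 CPM in UV2, Itga1 and Itgax rise from 5.07 and 0.717 CPM to 416 and 108 CPM, and Itgav overlaps.

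Of 5 tested beta chains, 2 were higher and 2 lower in UV2, or 80% called, beside 67.1% of all tested genes. The 2-fold test was passed by 2 of the 5, by 9 of 15 tested alpha chains and by 19.4% of all tested genes. Itgb1 (chromosome 8, 128685654 to 128733579), the partner of most alpha chains listed here, was measured at 1901, 1878 and 1629 CPM in bEnd.3 and at 1313, 1364 and 1368 CPM in UV2. All UV2 libraries were lower, by a log2 fold change of -0.42 (SE 0.08, adjusted p = 0.00262, edgeR). Itgb3, which pairs with alphaV and alphaIIb, was higher in UV2, with 235 ± 57.5 against 465 ± 17.4 CPM (edgeR log2 fold change 0.98, SE 0.16, adjusted p = 9.17e-04). Itgb5, an alternative partner of alphaV, was also higher but scarce, with 0.853 ± 0.291 against 3.30 ± 0.776 CPM (edgeR log2 fold change 1.97, adjusted p = 8.17e-04). Itgb4, the alpha6 partner of hemidesmosomes, had 164 ± 16.2 and 144 ± 24.9 CPM and did not pass (adjusted p = 0.255). Itgb7, a leukocyte chain, was not tested and had 16 counts in bEnd.3 and 43 in UV2. Itga11 and Itgb8 had 0 counts in all 6 libraries and Itgb6 had 1 count, in bEnd.3. A floor of 3 counts over a line corresponds to 0.0393 CPM in bEnd.3 and 0.0427 CPM in UV2.

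Expressed per length, the make-up of the alpha chain RNA differed between the lines. In bEnd.3 the order was Itga6 with 36.4% ± 4.26 of the summed alpha chain TPM, Itga5 with 31.0% ± 2.98, Itga3 with 19.8% ± 8.67, Itga4 with 6.71% ± 0.582 and Itgav with 2.86% ± 0.418. The ranges of Itga6 and Itga5 over the bEnd.3 libraries overlapped, as did those of Itga5 and Itga3. In UV2 Itga5 came first with 51.0% ± 1.54, followed by Itga6 with 24.4% ± 1.71, Itga3 with 11.8% ± 1.12, Itga1 with 5.92% ± 0.649, Itgax with 3.91% ± 0.363 and Itgav with 2.03% ± 0.313. Neighbours in that UV2 order had separate ranges. Itga1 made up 0.112% ± 0.0282 of the bEnd.3 sum, Itgax 0.0396% ± 0.0117, and Itga4 0.00953% ± 0.00730 of the UV2 sum. All 3 UV2 shares lay outside the bEnd.3 range for each of these 7 chains, Itga6 being lower in share at a similar level (428 ± 20.4 and 429 ± 58.8 TPM). Itgav was likewise lower in share at a similar level (34.0 ± 7.12 and 35.6 ± 5.18 TPM). Its ranges nearly met, at 2.3889% in UV2 replicate 1 and 2.3903% in bEnd.3 replicate 3. Each of the 7 share comparisons gave the smallest p that an exact two-sided permutation test of 3 against 3 libraries allows, 0.1. That test took the libraries as unpaired and did not use the replicate numbers. The summed alpha chain level was 1184 ± 88.3 TPM in bEnd.3 and 1757 ± 116 TPM in UV2, whereas the summed beta chain level was 1543 ± 118 TPM and 1259 ± 15.4 TPM. Among beta chains Itgb1 held 87.4% ± 1.02 and 77.2% ± 0.460, Itgb3 7.46% ± 1.28 and 17.6% ± 0.793, and Itgb4 4.79% ± 0.897 and 4.92% ± 0.749, of which the last overlapped.

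**Figure D3:**
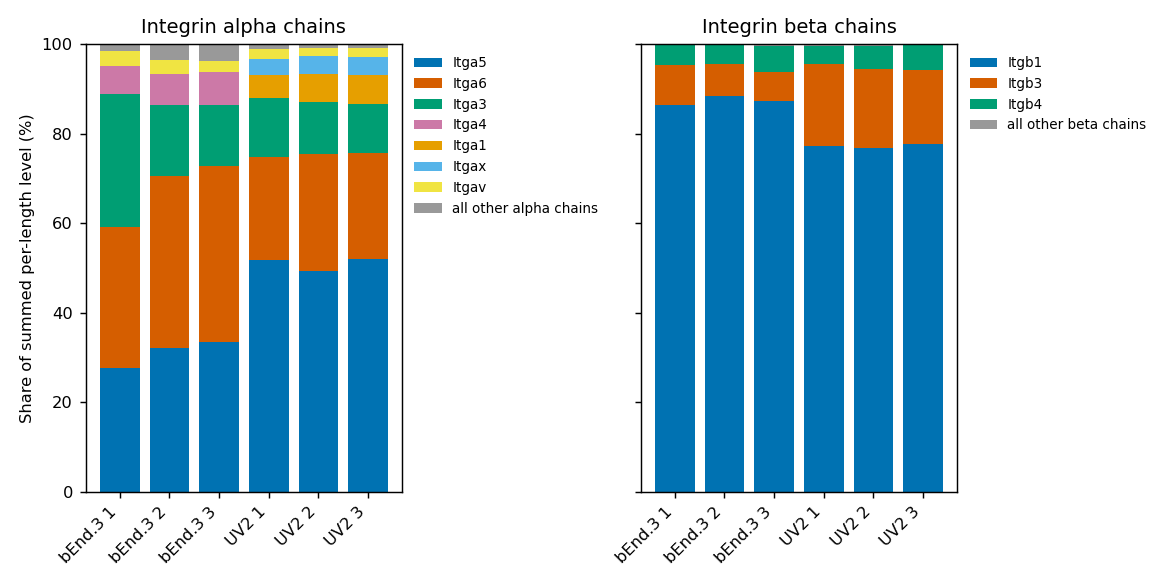
Share (%) of each chain in the summed per-length level of alpha chains (left) and beta chains (right), 1 bar per library. Itga5 takes 31.0% on average in bEnd.3 and 51.0% in UV2, the Itga4 band is visible in bEnd.3 alone, Itga1 and Itgax bands appear in UV2, and Itgb3 widens from 7.46% to 17.6%.

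Of the talins and kindlins, 2 of 4 tested were higher and 1 was lower in UV2, or 75% called, beside 67.1% of all tested genes. Tln1, talin-1, which links the beta tail to actin (chromosome 4, 43531513 to 43562583), was measured at 634, 659 and 629.7 CPM in bEnd.3 and at 839, 1008 and 825 CPM in UV2. The groups did not overlap, and the log2 fold change was 0.47 (SE 0.09, adjusted p = 0.00229, edgeR). With the medians of the chromosomes removed it was 0.23 and the call was lost (adjusted p = 0.0615). Tln2, talin-2, rose from 2.81 ± 0.530 to 7.51 ± 1.65 CPM (edgeR log2 fold change 1.41, adjusted p = 7.93e-04). Fermt2, kindlin-2, had 156 ± 3.54 and 162 ± 6.99 CPM and did not pass (edgeR log2 fold change 0.06, adjusted p = 0.434). Its chromosome 14 had the highest median of all, 0.71, and with that removed Fermt2 was at -0.66 (adjusted p = 6.75e-05). Fermt3, the kindlin of blood cells, was lower in UV2, at 2.53 ± 0.835 against 1.14 ± 0.171 CPM (adjusted p = 0.0102), and Fermt1 had 0 counts in all 6 libraries.

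In the ILK complex, which couples integrins to actin through adaptor proteins, the 5 members all passed the test, beside 67.1% of all tested genes. They split between relatives, and 0 passed the 2-fold test, beside 19.4% of all tested genes. Ilk itself, integrin-linked kinase (chromosome 7, 105736590 to 105742925), was measured at 140.5, 136 and 142 CPM in bEnd.3 and at 103, 99.2 and 92.8 CPM in UV2. The UV2 libraries were all lower, by a log2 fold change of -0.50 (SE 0.07, adjusted p = 2.89e-04, edgeR). Exons of Ilk share 1533 bases with Taf10 on the opposite strand and 319 with Rrp8, and its expected counts were not whole in any library, so its level is uncertain to that extent. Lims2, PINCH-2 (chromosome 18, 31922293 to 31958620), had 25.6, 24.3 and 29.9 CPM in bEnd.3 and 10.3, 11.4 and 13.3 CPM in UV2. It was lower in all UV2 libraries (edgeR log2 fold change -1.18, SE 0.13, adjusted p = 1.24e-04, edgeR), and its counts were also not whole. Its relative Lims1, PINCH-1, was higher, with 391 ± 26.6 against 586 ± 47.2 CPM (edgeR log2 fold change 0.58, adjusted p = 5.73e-04). Parva, alpha-parvin, was lower, with 249 ± 12.98 against 134 ± 20.1 CPM (edgeR log2 fold change -0.90, adjusted p = 2.43e-04), and Parvb, beta-parvin, was higher, with 186 ± 1.44 against 325 ± 39.5 CPM (edgeR log2 fold change 0.81, adjusted p = 1.62e-04). Per length, Parva and Parvb were at 154 ± 9.56 and 140.1 ± 2.31 TPM in bEnd.3, and at 79.8 ± 12.96 and 236 ± 25.7 TPM in UV2.

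The signalling members differed little. Ptk2, focal adhesion kinase (chromosome 15, 73205102 to 73423820), was measured at 246, 282 and 273 CPM in bEnd.3 and at 310.3, 331 and 296 CPM in UV2. The UV2 libraries were all higher, but by a log2 fold change of 0.23 (SE 0.08, adjusted p = 0.0336, edgeR). That call was lost without bEnd.3 replicate 1 (adjusted p = 0.0773) or 3 (0.0566) and without UV2 replicate 1 (0.0635) or 2 (0.109). The median of chromosome 15 was 0.50, and with the medians of the chromosomes removed Ptk2 was lower in UV2, at -0.28 (adjusted p = 0.0158). Pxn, paxillin, was higher, with 330.5 ± 28.0 against 443 ± 6.03 CPM (edgeR log2 fold change 0.42, adjusted p = 0.00165). Bcar1, the adaptor p130Cas, was lower, with 181 ± 15.3 against 152 ± 13.1 CPM and overlapping libraries (edgeR log2 fold change -0.25, adjusted p = 0.0399). It no longer passed without bEnd.3 replicate 2 (adjusted p = 0.122) or 3 (0.0990) or without UV2 replicate 1 (0.112) or 2 (0.140).

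Among the 4 proteins of the actin link, Vcl was higher and the other 3 were lower, or 100% called, beside 67.1% of all tested genes. Vcl, vinculin, which reinforces talin to actin under force, lies on chromosome 14 (20929383 to 21033676). It was measured at 327, 320.5 and 259 CPM in bEnd.3 and at 765, 779.6 and 787 CPM in UV2. The UV2 libraries were level and all above bEnd.3, with a log2 fold change of 1.36 (SE 0.10, adjusted p = 1.37e-05, edgeR). With the chromosome 14 median of 0.71 removed it was 0.65 (adjusted p = 7.15e-04) and no longer passed the 2-fold test, and 2090 bases of its exons are shared with Ap3m1 on the opposite strand. Zyx, zyxin, which gathers at strained actin bundles (chromosome 6, 42349511 to 42360213), was measured at 790.4, 701 and 787 CPM in bEnd.3 and at 351, 311 and 261 CPM in UV2. The UV2 libraries were all lower, with a log2 fold change of -1.31 (SE 0.12, adjusted p = 4.11e-05, edgeR). Its exons share 236 bases with Epha1, and its counts were not whole in any library. Tns3, tensin-3, was lower, with 108 ± 2.68 against 72.3 ± 8.24 CPM (edgeR log2 fold change -0.57, adjusted p = 7.10e-04). Tns1, tensin-1, was lower with overlapping libraries, 817 ± 125 against 636 ± 63.1 CPM (edgeR log2 fold change -0.36, adjusted p = 0.0350). That call was lost with the medians of the chromosomes removed (adjusted p = 0.531), without bEnd.3 replicate 2 (0.1001) or 3 (0.107), and without UV2 replicate 1 (0.123) or 3 (0.0709).

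**Figure D4:**
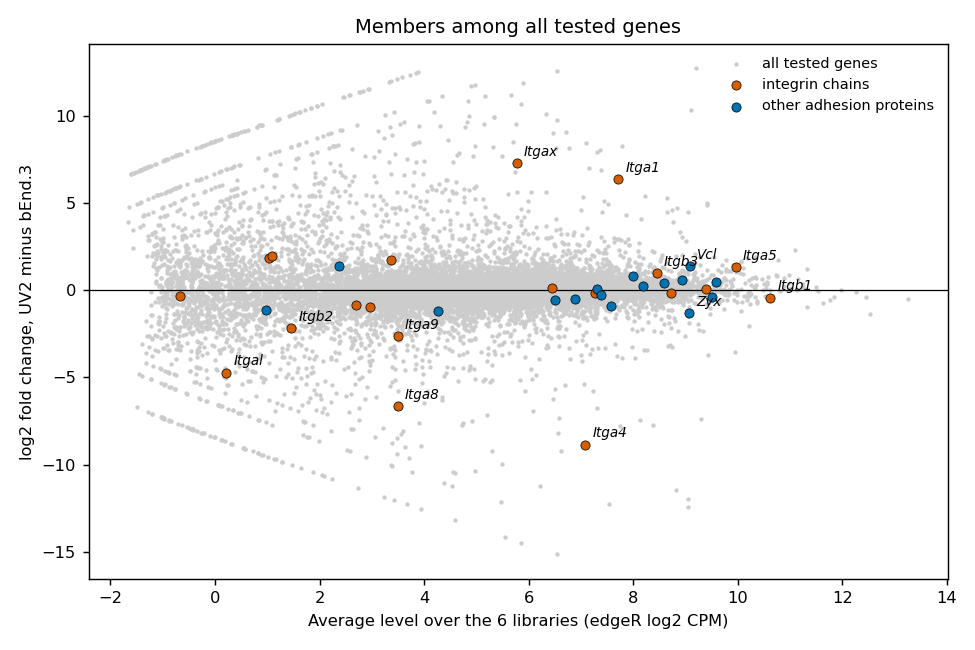
Log2 fold change (UV2 minus bEnd.3) against average level (edgeR log2 CPM over the 6 libraries) for the 12720 tested genes in grey, with integrin chains and other adhesion proteins coloured. Most adhesion proteins sit at high level near 0, while Itgax, Itga1, Itga4 and Itga8 lie far from it at 7.27, 6.35, -8.85 and -6.65.

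Ratios of related members were taken within each library as log2 of the CPM ratio, with 0.5 CPM added to each level, for 9 pairs. The Parva to Parvb ratio was 0.42 ± 0.08 in bEnd.3 and -1.28 ± 0.39 in UV2, a shift of -1.71, and the Lims1 to Lims2 ratio shifted by 1.73, from 3.86 ± 0.22 to 5.59 ± 0.07. The Itga5 to Itga4 ratio shifted by 9.39 (10.18 with 0.1 CPM added) and the Itga1 to Itga2 ratio by 4.60. The Fermt2 to Fermt3 ratio shifted by 0.91, the Tln1 to Tln2 ratio by -0.80 and the Itgb3 to Itgb5 ratio by -0.48 (-0.85 with 0.1 CPM added). In these 7 pairs the 2 lines had separate ranges, and each gave the smallest exact two-sided permutation p of 0.1 (0.129 adjusted over the 9 pairs), which cannot pass the threshold at this size. The permutation did not pair libraries by replicate number. Tns1 to Tns3 shifted by 0.22 (exact p = 0.5) and Itga6 to Itga3 by 0.09 (exact p = 1), both with overlap.

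**Figure D5:**
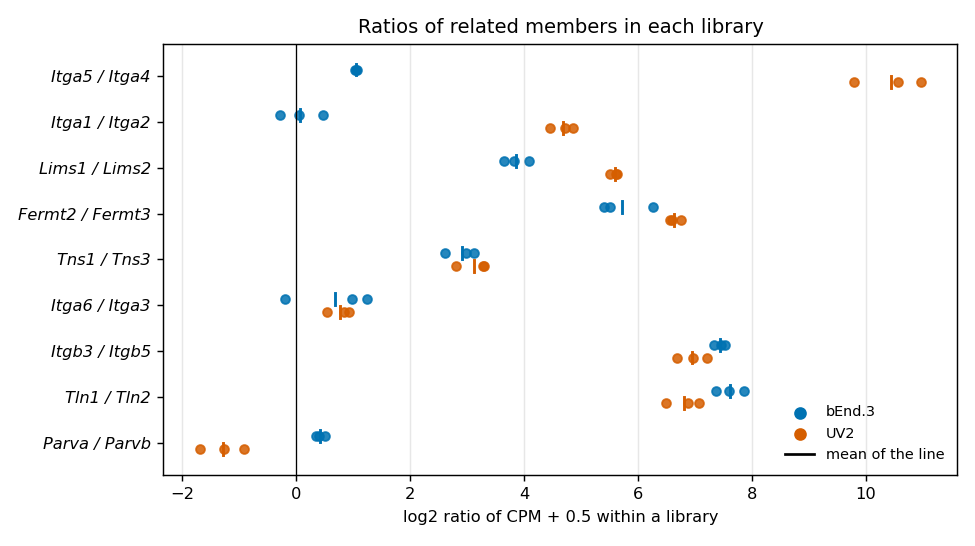
Log2 ratio of related members within each library (CPM plus 0.5), with the mean of each line as a bar. Itga5 to Itga4 and Itga1 to Itga2 are the widest separations, Parva to Parvb crosses 0 from 0.42 to -1.28, and Tns1 to Tns3 and Itga6 to Itga3 overlap.

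The genes for integrin ligands were followed as a list of 44 matrix proteins and counter-receptors, of which 34 were tested. In UV2, 13 were higher, 11 lower (16 with no filter on low counts) and 10 did not pass, with a median log2 fold change of -0.03. That is 70.6% called, beside 67.1% of all tested genes. Among called genes that reached 10 CPM on average in either line, the 4 highest were Lama1, Col3a1, Vwf and Thbs1. Lama1, the laminin alpha1 chain, was measured at 0.451 ± 0.270 CPM in bEnd.3 and 21.9 ± 3.17 CPM in UV2 (edgeR log2 fold change 5.63, SE 0.30), and Col3a1, a fibrillar collagen, at 0.954 ± 0.672 and 32.1 ± 16.6 CPM (5.13, SE 0.56; 5.73 without bEnd.3 replicate 1). Vwf, the von Willebrand factor that binds alphaIIbbeta3 and alphaVbeta3, was at 84.6 ± 47.6 and 870.0 ± 74.1 CPM (3.36, SE 0.46). Thbs1, the matricellular protein thrombospondin-1, was at 5.30 ± 2.77 and 41.0 ± 17.3 CPM (2.97, SE 0.44).

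The 4 lowest ligand genes were Fbn1, Fbln5, Jam3 and Ltbp1. Fbn1, the microfibril protein fibrillin-1, fell from 14.3 ± 10.8 to 0.314 ± 0.232 CPM (edgeR log2 fold change -5.55, SE 0.90), with -4.90 without bEnd.3 replicate 2 and -6.26 without UV2 replicate 2. Fbln5, fibulin-5, an elastic fibre protein with an RGD site, fell from 1284 ± 249 to 99.3 ± 15.2 CPM (-3.69, SE 0.18). Jam3, a junctional adhesion molecule, fell from 173 ± 15.8 to 18.7 ± 0.220 CPM (-3.21, SE 0.09), and Ltbp1, a latent TGF-beta binding protein, from 80.0 ± 30.5 to 9.63 ± 2.21 CPM (-3.06, SE 0.32). Fibroblast markers, among which Col3a1 was counted, summed to 3.12 to 3.46 CPM in bEnd.3 and 27.1 to 67.2 CPM in UV2. Of 6, 1 was above 1 CPM in bEnd.3 (Pdgfra) and 2 in UV2 (Pdgfra and Col3a1). Pdgfra was higher in UV2, at 2.07 ± 0.608 against 10.99 ± 4.52 CPM (edgeR adjusted p = 4.53e-04). Col1a1 had 16 counts in bEnd.3 and 9 in UV2, Col1a2 had 0 and 6, Lum had 1 and 4, and Dcn had 1 count in each line. Whether the fibroblast markers moved with the ligand genes for a shared reason was not tested.

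For some of the chains that differed most, ligands were picked after their values were seen, and their values stand beside those of the chains. No ligand was picked for Itgax. For alpha4, Vcam1 was at 15.0 ± 3.20 CPM in bEnd.3 and 99.3 ± 12.4 CPM in UV2, the line where Itga4 was at 0.574 CPM. Fn1, fibronectin, bound by alpha5beta1 and alpha4beta1, was higher in UV2, at 712 ± 104 against 1409 ± 458 CPM (edgeR log2 fold change 0.98, SE 0.24), the same direction as Itga5. Its UV2 libraries were uneven, with 1730.4, 1612 and 884 CPM. Npnt, nephronectin, the alpha8beta1 ligand, was lower in UV2, at 109 ± 44.3 against 18.7 ± 7.54 CPM (-2.55, SE 0.38), and Tnc, tenascin-C, an alpha9beta1 ligand, at 618 ± 314 against 118 ± 30.2 CPM (-2.38, SE 0.36). Spp1, osteopontin, whose receptors include alpha4, alpha8 and alpha9 integrins, was higher in UV2, at 94.4 ± 68.1 against 350.0 ± 33.8 CPM (1.89, SE 0.45). Those 3 alpha chains were lower there, while Itga5, Itgb3 and Itgb5 were higher and Itgav did not pass. For alpha1, the collagen IV genes Col4a1 and Col4a2 were lower in UV2, by log2 fold changes of -0.37 (SE 0.10) and -0.75 (SE 0.09), where Itga1 was higher. All 7 of these ligand genes passed the edgeR test, as did 67.1% of all tested genes, but they were picked with their values known.

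A further list of 67 adhesion regulators and adaptors had 59 tested genes, with 18 higher, 29 lower and 12 not passing, or 79.7% called, beside 67.1% of all tested genes (33.9% higher and 33.3% lower), and a median of -0.19. The 4 highest were Ddr2, Ptk2b, Sdc4 and Cd9. Ddr2, a collagen-binding receptor tyrosine kinase, was measured at 0.269, 0.163 and 0.204 CPM in bEnd.3 and at 76.8, 42.3 and 33.8 CPM in UV2 (edgeR log2 fold change 7.89, SE 0.47). Ptk2b, the FAK relative PYK2, stood at 2.52 ± 0.634 and 68.8 ± 0.638 CPM (4.75, SE 0.16, and 4.03 with the medians of the chromosomes removed), while Ptk2 itself was at 267 ± 18.8 and 312 ± 17.4 CPM. Sdc4, the heparan sulfate proteoglycan syndecan-4, which acts with alpha5beta1 on fibronectin, rose from 4.47 ± 0.455 to 52.6 ± 5.43 CPM (3.56, SE 0.12). The tetraspanin Cd9 rose from 29.4 ± 2.87 to 186 ± 22.2 CPM (2.66, SE 0.12).

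The 4 lowest of that list were Kank2, Nedd9, Nck1 and Kank3. Kank2, a talin-binding protein at the rim of adhesions, fell from 165 ± 25.7 to 25.4 ± 2.54 CPM (edgeR log2 fold change -2.70, SE 0.13), and Kank3 of the same family from 444 ± 63.8 to 208 ± 13.6 CPM (-1.09, SE 0.11). Nedd9, a relative of p130Cas, fell from 113 ± 4.38 to 36.4 ± 3.17 CPM (-1.63, SE 0.08), and the adaptor Nck1 from 129 ± 6.73 to 53.1 ± 4.41 CPM (-1.28, SE 0.08). The 8 genes named from this list were taken from those already called, so that they passed is no separate result. Their adjusted p was at most 7.79e-05 (edgeR). Their libraries did not overlap between the lines, as was so for 73.2% of all tested genes.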

How the data were processed

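Bulk mRNA libraries of bEnd.3 and UV2 (3 each) were made with a strand-preserving mRNA kit, per the labels' protocols. The authors deposited expected counts per gene symbol, not normalized. Trim Galore, STAR, RSEM and the mm10 build are named in the submitters' processing notes, whereas their versions, the annotation and any strand option for counting were not given in the sources used here. Such counts divide ambiguous reads between genes, so near copies and overlapping genes are uncertain. The titles of the samples gave line and replicate number.

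Counts were rounded to whole numbers, filtered with edgeR's filterByExpr (12720 of 24411 genes kept) and scaled by TMM (factors 0.969 to 1.027). The test was edgeR's quasi-likelihood test (edgeR 4.0.16, R 4.3.3) with line as the only term, Benjamini-Hochberg adjusted over all 12720 genes, and an adjusted p under 0.05 was called. edgeR's glmTreat tested changes against 2-fold. The standard error is the size of the log2 fold change divided by the square root of F. Per-length levels used the merged exon length of GENCODE's basic annotation (95.8% of genes matched), on the same assembly as mm10. DESeq2 1.42.0 and limma 3.58.1 gave alternatives, with other scalings, filters, a replicate block, removal of chromosome medians and each library left out.

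The members and lists were chosen with earlier results of these data known. Values in each library are given for called members with a log2 fold change of at least 1 in size and a mean of 10 CPM or more in either line, and for Itgb1, Itgav, Ptk2, Ilk and Tln1. From each further list, the 4 highest and 4 lowest called genes of at least 10 CPM are named. Same-numbered libraries of the lines deviated together (correlations 0.167, 0.326 and 0.339 of their deviations from the line means over genes), so the numbers may pair the libraries. The labels state no pairing, and the main fit and the permutation tests took the libraries as unpaired. The replicate block was an alternative. No 2 libraries of a line agreed within counting noise.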

Additional observations from a re-analysis of the deposited data

How the results depend on the processing

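Among 36 tested members and 14 alternatives, 479 member values kept their direction and their side of the threshold. Of the rest, 7 changed direction, 16 kept their direction and lost the call, and 1 kept its direction and gained a call. Counts of called members stayed at 13 to 16 higher and 13 to 17 lower over all alternatives, and with no filter 16 were higher because Itgam and Itgb7 were then tested. With the replicate block, 14 members were higher and 16 lower, and pairing the libraries by number changed no member's call. In the ligand list the block gave 14 higher and 13 lower, and all alternatives 13 to 14 higher and 10 to 16 lower. With total counts as the scaling, Itga6 was at -0.00727 and Fermt2 at -0.00707, and Ptk2 lost its call (adjusted p = 0.108). With chromosome medians removed, Ptk2 was at -0.28 and Fermt2 at -0.66, both called lower, and 5 rather than 7 members passed the 2-fold test as higher (Itga2, Itga5 and Vcl lost, Tln2 gained), with 6 lower in both. Leaving out 1 library at a time gave Itga3 from -0.40 to 0.36, Itga6 from -0.0605 to 0.14 and Itgav from -0.0351 to 0.29. It gave the Itga6 to Itga3 log2 ratio from -0.34 to 0.37, and the difference in the Itgb4 share from -0.168 to 0.642 percentage points, a setting chosen after seeing the data. With 0.1 CPM added in place of 0.5, the Itga5 to Itga4 shift was 10.18 and the Itgb3 to Itgb5 shift -0.85. For these results the cause was not tested. Per-length shares by the longest coding transcript, also chosen after seeing the data, kept the direction of each share given. Depth limits members below 1 CPM: Itgal in UV2 rests on 5 counts and Itga8 on 15.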
